A study of Mus musculus with 12 samples.

Results

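Proteasome genes were taken as all genes of the count table whose symbol is Psma, Psmb, Psmc, Psmd, Psme, Psmf or Psmg followed by a number, leaving out Psma8. There were 47 of them among 23284 genes. RNA was measured by poly-A sequencing in whole mouse embryos, 1 per library, whose strain background is C57BL/6 x 129Sv and whose age is 9.0 dpc (days after fertilization), at about 9 to 10 somites. The labels put 4 embryos in a wild-type group and 8 in a group called Tgif1;Tgif2 null. The series text describes the latter as conditional double mutants that lack both alleles of Tgif1 and of Tgif2, and no source used here names the Cre driver. Nothing in the labels ties embryos to litters, dates or batches. Libraries held 16802367 to 21346245 counts.

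The proteasome is the protease that degrades ubiquitin-tagged proteins in the cytosol and nucleus of every cell. Its barrel-shaped core particle is built from alpha and beta rings, with the catalytic sites on beta subunits inside. A regulatory particle, made of an ATPase ring and non-ATPase subunits, binds ubiquitin chains, removes them and threads the substrate into the core. Dedicated chaperones assemble both particles and do not stay in the finished complex.

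Tgif1 checks the labels: its level, in CPM (counts relative to the library's TMM-adjusted size), was 64.2, 61.3, 59.4 and 58.5 in the wild-type embryos and 5.50 to 6.87 in the other group. Tgif2 was not lower there (85.7 to 88.5 CPM in wild type, 84.4 to 116 CPM in the other group, adjusted p = 0.0958 by edgeR's quasi-likelihood test), so those embryos are called mutant-labelled. All 12 neural, somite, heart, midline, vascular and posterior marker genes of a whole embryo were tested, and none stood at 0 in any library. Red cell markers summed to 787 to 1312 CPM in wild type and 38.5 to 1679 CPM in the mutant-labelled embryos, and yolk sac markers to 791 to 2471 and 870 to 3637 CPM. Mutant-labelled embryo 2 had the lowest sum of its group on both lists and wild-type embryo 1 the lowest on both in wild type, and counts are also given without these 2. None of the 8 and 10 tested genes of these lists was called. Whole-embryo counts cannot tell fewer cells of a type from less RNA per cell.

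For the called proteasome genes with the largest differences that had an entry in the RefSeq promoter table, the 120 bases just before the annotated start (GRCm38.p6) are shown, 5′ to 3′ along the gene. They let a reader compare the start regions of the genes that moved most in each direction. Capitals mark a match to TGACNNNGC, the core of the antioxidant response element through which Nfe2l1 and Nfe2l2 are known to act.
Psmg4 (higher; chr13:34162844-34162963, + strand): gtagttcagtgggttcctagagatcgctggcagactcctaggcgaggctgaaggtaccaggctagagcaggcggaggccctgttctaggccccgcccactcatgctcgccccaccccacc
Psmg3 (higher; chr5:139826895-139827014, - strand): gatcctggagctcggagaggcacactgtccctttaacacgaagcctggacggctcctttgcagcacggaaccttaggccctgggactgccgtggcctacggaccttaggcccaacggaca
Psma3 (lower; chr12:70974503-70974622, + strand): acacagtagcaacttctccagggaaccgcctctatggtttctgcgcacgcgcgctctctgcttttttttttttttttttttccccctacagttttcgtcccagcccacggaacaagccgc
Psmb5 (lower; chr14:54617996-54618115, - strand): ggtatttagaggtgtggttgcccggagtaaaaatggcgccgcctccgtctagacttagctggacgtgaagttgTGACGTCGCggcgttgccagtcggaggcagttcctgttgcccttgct
Psmd11 (lower; chr11:80428495-80428614, + strand): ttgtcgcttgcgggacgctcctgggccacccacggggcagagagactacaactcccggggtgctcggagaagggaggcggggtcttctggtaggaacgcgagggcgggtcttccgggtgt
Psmd2 (lower; chr16:20651532-20651651, + strand): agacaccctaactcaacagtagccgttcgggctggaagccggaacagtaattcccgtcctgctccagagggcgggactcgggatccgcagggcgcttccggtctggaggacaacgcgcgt

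Over the whole table of promoters, each running from 250 bases before the start to 50 bases after it, 40 of the 47 proteasome genes had an entry. TGACNNNGC, on either strand, was found in 6 of these 40 genes (15%), against 14.0% of all 27025 genes with an entry. The genes were Psmb5, Psmb6, Psmc6, Psmd9, Psmd12 and Psme4. CCAAT, the box bound by NF-Y, was found in 14 (35.0%, against 41.1% of all genes), and CTGTCA, the core of the TGIF site, in 6 (15%, against 21.6%). Psmd6 and Psmd10 were the called members among those 6. A match is a stretch of letters only. Read on the opposite strand CTGTCA begins with TGAC, so a single stretch can match both TGACNNNGC and CTGTCA, but no proteasome gene held both.

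Proteasome genes were abundant and differed little between the groups. Of the 47 genes, 44 passed the filter on low counts and were tested. In them 6 were higher in the mutant-labelled embryos, 10 were lower and 28 were not called at an adjusted p of 0.05 (edgeR quasi-likelihood test, Benjamini-Hochberg over all 14412 genes tested). The called share was thus 36.4%, against 51.5% of all genes tested, split into 26.6% higher and 24.9% lower. The median log2 fold change of the 44 genes was -0.06, and that of all genes 0.01.

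The size of the differences was small throughout. The 44 log2 fold changes lay between -0.28 (Psma3) and 0.28 (Psmg4), and their median absolute value was 0.08, against 0.25 over all genes tested. Only 4 of the 44, Psma3, Psmb5, Psmg3 and Psmg4, differed by more than 1.2-fold (9.09%), while 48.7% of all genes tested did. Every one of the 44 had a 95% interval within 1.5-fold, and 30 had one within 1.2-fold. In a test against a fold change of 1.2 (edgeR's glmTreat), 0 of the 44 genes passed at an adjusted p of 0.05, and 0 at an unadjusted p of 0.05, whereas 22.4% of all genes tested passed; without a minimum fold change DESeq2 and limma-voom each called the same number as edgeR, 6 higher and 10 lower.

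The measurements behind these values were precise. The median SE of a log2 fold change was 0.05 for proteasome genes and 0.09 over all genes tested. Their median coefficient of variation between embryos was 3.94% in wild type and 6.17% in the mutant-labelled group, and over all genes it was 7.08% and 10.9%. The median wild-type level of the 44 genes was 193 CPM, with a range of 8.58 (Psme2) to 528 CPM (Psmd2), against a median of 26.2 CPM over all genes tested.

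**Figure D1:**
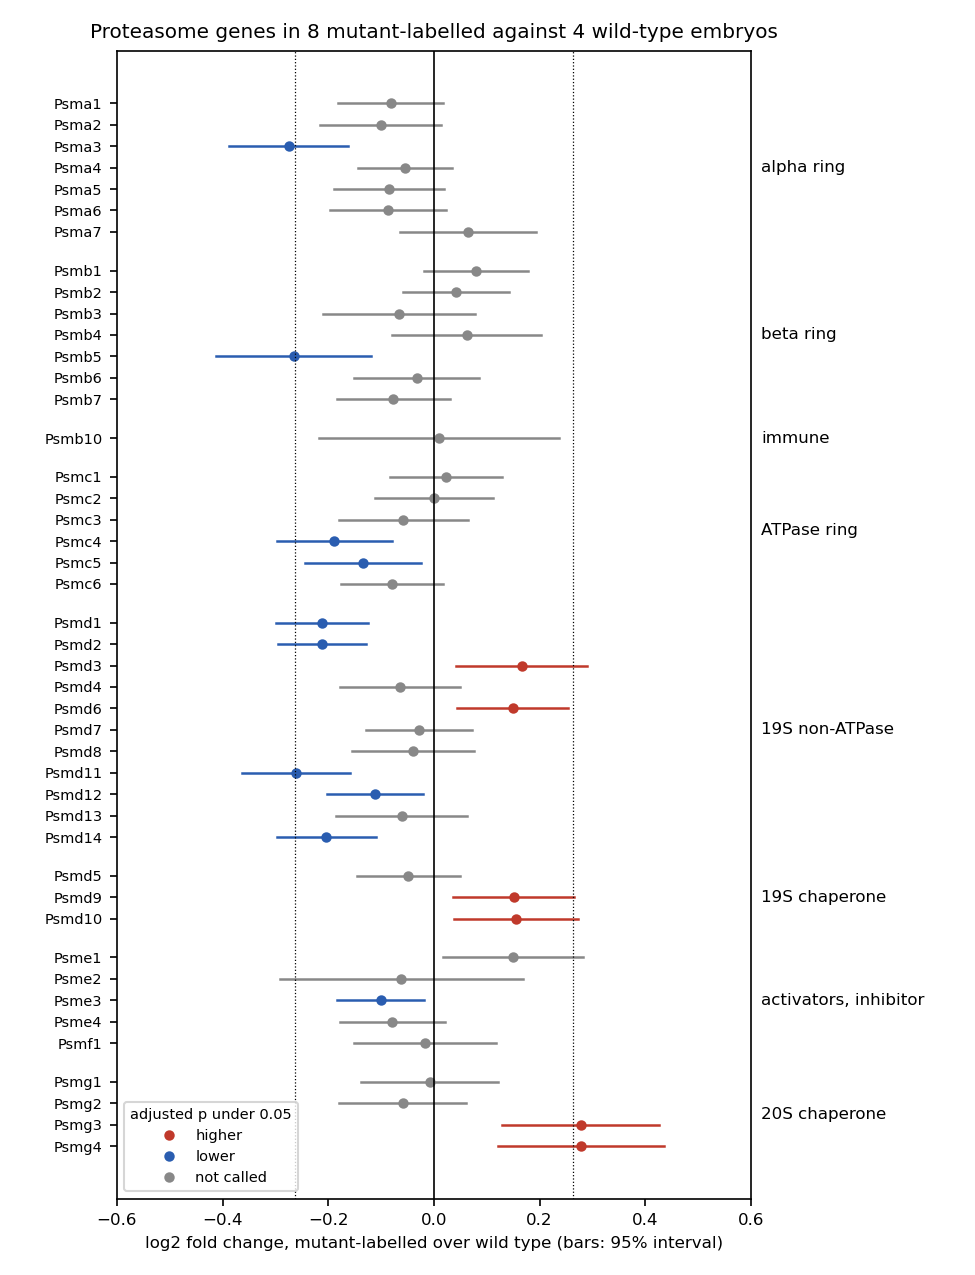
Log2 fold change of each of the 44 tested proteasome genes, mutant-labelled (n = 8) over wild type (n = 4), with 95% intervals from the edgeR fit and genes grouped by role. Dotted lines mark a 1.2-fold difference, and the points of 4 genes (Psma3, Psmb5, Psmg3 and Psmg4) lie past them.

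Added over all 47 genes, proteasome transcripts made up 8198, 8002, 7746 and 7781 CPM in the wild-type embryos. In the mutant-labelled embryos the sum was 7218 at the lowest, 7526 at the median and 8292 at the highest. The groups overlapped, with 2 mutant-labelled embryos, 2 and 6, above the wild-type mean of 7932 CPM. Mutant-labelled embryo 6 had the highest level of its group in 29 of the 44 tested genes, and embryos 7 and 1 the lowest in 15 and 14 of them, so the embryos of that group differed across many members at once.

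The alpha ring, the outer ring of the core that guards its entrance, held 1 called gene among 7 (14.3%, against 51.5% of all genes tested). Psma3 fell, from 46.7, 44.3, 45.8 and 42.1 CPM in wild type to a lowest value of 33.9, a median of 37.4 and a highest of 39.3 CPM (log2 change -0.28, SE 0.05, adjusted p = 0.00051). No mutant-labelled value reached the wild-type range. Psma3 has 4 near-identical copies in the transcript set, so its counts are uncertain. Psma2 stood at 165, 161, 154 and 148 CPM in wild type and at 131, 146 and 162 CPM (lowest, median, highest) in the mutant-labelled embryos (adjusted p = 0.13), and Psma1 at 227, 212, 219 and 209 against 195, 201 and 225 CPM (adjusted p = 0.153). Both groups overlapped in these genes, and without mutant-labelled embryo 6 both were called lower. Psma7 was the one alpha gene with a fold change above 0, at 333, 299, 278 and 304 CPM in wild type and 285, 323 and 348 CPM across the mutant-labelled embryos (log2 change 0.06, adjusted p = 0.391). Psma4, Psma5 and Psma6 had log2 fold changes of -0.06, -0.08 and -0.09.

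Of the 7 standard beta subunits 1 fell (14.3% called, against 51.5% of all genes tested). Psmb5, which carries the chymotrypsin-like active site, stood at 68.1, 69.3, 64.2 and 63.1 CPM in wild type and at 47.6, 55.0 and 64.2 CPM across the mutant-labelled embryos (log2 change -0.27, SE 0.07, adjusted p = 0.00477). All 8 lay below the wild-type mean, but the highest, embryo 6, reached into the wild-type range. The gene has 1 near-identical copy. Its catalytic partners did not pass: Psmb6, the caspase-like subunit, had a log2 fold change of -0.03 (95% interval -0.15 to 0.09), and Psmb7, the trypsin-like subunit, stood at 316, 289, 286 and 287 CPM in wild type and 262, 274 and 311 CPM in the mutant-labelled embryos (-0.08, 95% interval -0.18 to 0.03).

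Structural beta subunits lay on both sides of 0. Psmb1 stood at 238, 222, 228 and 221 CPM in wild type and 222, 239 and 261 CPM across the mutant-labelled embryos (log2 change 0.08, adjusted p = 0.164), with 7 of 8 above the wild-type mean. Psmb2 measured 153, 157, 153 and 156 CPM against 148, 159 and 177 CPM (0.04), and Psmb4 280, 261, 253 and 251 CPM against 244, 263 and 317 CPM (0.06). In all of these the groups overlapped. Psmb3 had a log2 fold change of -0.07. Over the whole core particle, then, 2 of 14 subunit genes were lower and none higher, where 24.9% and 26.6% of all genes tested were. With an unadjusted p under 0.05 none of the 14 was higher either.

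Inducible subunits, which replace the catalytic ones in the immunoproteasome after interferon and in lymphoid and thymic cells, were scarce. Summed within each group, Psmb8 had 5 counts in the 4 wild-type libraries and 10 in the 8 mutant-labelled ones. Psmb9 had 10 and 9 counts, and Psmb11, the thymus-specific subunit, 7 and 14. No library had more than 6 counts of any of them, and none entered the test. Psmb10, the inducible counterpart of Psmb7, was the exception, at 17, 17.3, 15.7 and 17 CPM in wild type and 12.3, 16.8 and 19.9 CPM across the mutant-labelled embryos (log2 change 0.01, 95% interval -0.22 to 0.24, adjusted p = 0.948). Its reads amounted to 5.69% ± 0.299 (SD, n = 4) of those of Psmb7 in wild type and to 6.03% ± 0.722 (SD, n = 8) in the mutant-labelled group.

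Some genes that are known to respond to interferon alongside these subunits were measured too. H2-D1, a classical MHC class I gene, rose by 0.86 on the log2 scale (SE 0.14) and has 1 near-identical copy. Irf9, an interferon-regulated transcription factor, fell by 0.54 (SE 0.10). Tap1, a peptide transporter gene beside Psmb9, had an estimate of 0.50 (SE 0.21) that was not called (adjusted p = 0.0572).

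White cells, which express the inducible subunits, left few transcripts. Of 10 white cell markers 3 were tested, and 1 of them, Coro1a, rose (3.11 to 23.0 CPM). The pan-leukocyte gene Ptprc summed to 0 counts in wild type and to 9 in the mutant-labelled libraries. The other 9 markers without Coro1a summed to 2.61 to 3.95 CPM in wild type and 3.92 to 6.35 CPM in the mutant-labelled embryos. Their part in the level of Psmb10 was not tested.

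In the ATPase ring, the motor that unfolds substrates, 2 of 6 genes fell (33.3%). Of all genes tested 51.5% were called and 24.9% were lower. Psmc4 stood at 300, 297, 283 and 287 CPM in wild type and at 240, 249 and 289 CPM across the mutant-labelled embryos (log2 change -0.19, SE 0.05, adjusted p = 0.00599). Psmc5 stood at 310, 303, 282 and 296 against 251, 266 and 306 CPM (-0.13, SE 0.05, adjusted p = 0.0398). In both genes mutant-labelled embryo 6 was the highest and the only one of its group above a wild-type embryo in Psmc4. Psmc6 measured 245, 230, 234 and 218 CPM against 208, 219 and 233 CPM (-0.08, adjusted p = 0.161), and Psmc3 had a log2 fold change of -0.06. Psmc1 (230, 247, 221 and 231 CPM against 219, 233 and 261 CPM) and Psmc2 (218, 220, 212 and 206 against 194, 209 and 242 CPM) had log2 fold changes of 0.02 and 0.00, with 95% intervals of -0.08 to 0.13 and -0.11 to 0.11.

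The non-ATPase subunits of the regulatory particle form the largest role group. Of 11 tested, 5 fell, 2 rose and 4 were not called, so that 63.6% were called, against 51.5% of all genes tested. Psmd11, a lid subunit, fell from 119, 111, 104 and 108 CPM in wild type to 85.1, 93.1 and 97.2 CPM across the mutant-labelled embryos (log2 change -0.26, SE 0.05, adjusted p = 0.00034). The scaffold genes of the base, Psmd2 and Psmd1, fell too: Psmd2 from 527, 543, 520 and 524 CPM to 423, 455 and 485 CPM (-0.21, SE 0.04, adjusted p = 0.00039). Psmd1 stood at 422, 389, 385 and 381 CPM against 325, 344 and 353 CPM (-0.21, SE 0.04, adjusted p = 0.000544). Psmd2 and Psmd1 had the highest mean CPM of the 47 genes in wild type. Psmd14, the deubiquitinase of the lid, fell from 174, 172, 169 and 167 CPM to 140, 145 and 162 CPM (-0.20, SE 0.04, adjusted p = 0.00135). In these 4 genes the wild-type range was reached by no mutant-labelled embryo. Psmd11 and Psmd2 have 2 and 1 near-identical copies, and exons of Psmd1 overlap those of other genes.

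Other lid subunits included both rises and genes without a call. Psmd3 stood at 347, 361, 342 and 360 CPM in wild type and 347, 385 and 440 CPM across the mutant-labelled embryos (log2 change 0.17, SE 0.06, adjusted p = 0.0262), with 7 of 8 above the wild-type mean. Psmd6 stood at 176, 171, 171 and 165 CPM against 181, 183 and 212 CPM (0.15, SE 0.05, adjusted p = 0.0192), and there all 8 lay above every wild-type embryo. Psmd12, another lid subunit, fell from 207, 190, 194 and 192 CPM to 173, 179 and 192 CPM (-0.11, SE 0.04, adjusted p = 0.0383), with all 8 below the wild-type mean and the highest inside the wild-type range. Psmd4, a ubiquitin receptor, and the lid genes Psmd7, Psmd8 and Psmd13 had log2 fold changes of -0.03 to -0.06 and were not called. Reads of the 17 regulatory particle genes amounted to 173% to 180% of those of the 14 core genes in wild type and to 167% to 176% in the mutant-labelled embryos, so the ranges overlapped.

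**Figure D2:**
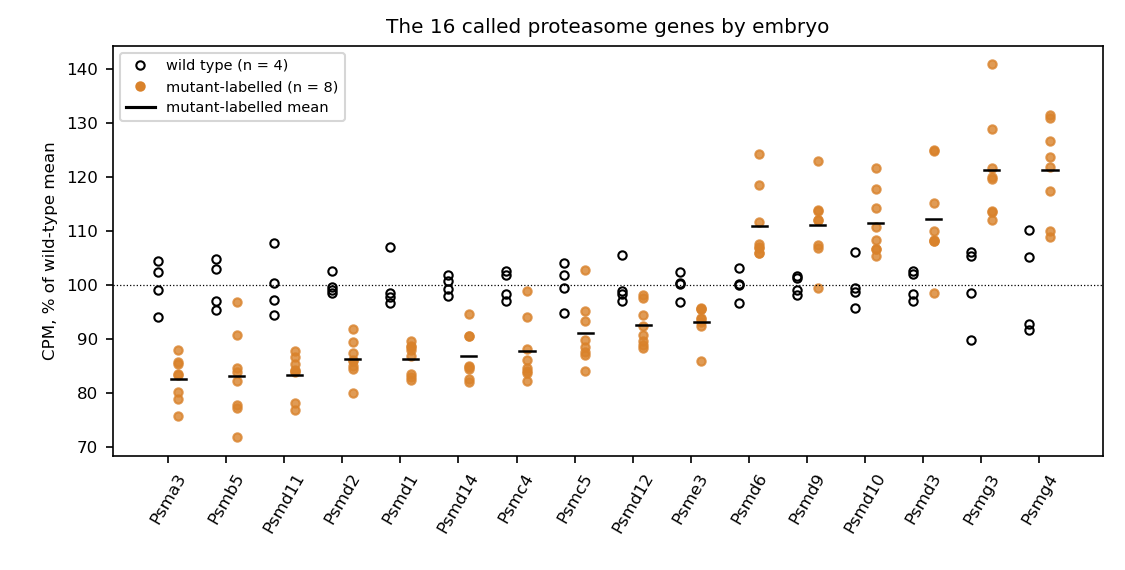
Level of the 16 called proteasome genes in each embryo, as a percentage of the wild-type mean CPM (open circles wild type, n = 4; filled circles mutant-labelled, n = 8; bars the mutant-labelled mean). The 10 genes that fell stand on the left and the 6 that rose on the right, and in 8 of the 16 no mutant-labelled embryo falls within the wild-type range.

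In 8 of the 44 genes tested the groups did not overlap: Psma3, Psmd1, Psmd2, Psmd11, Psmd14 and Psme3 were lower in all mutant-labelled embryos, and Psmd6 and Psmg3 were higher. Over all genes tested the groups did not overlap in 34.7% (17.5% higher, 17.1% lower).

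Of the 7 assembly chaperones among these proteasome genes 4 were called, all of them higher. That is 57.1%, against 51.5% of all genes tested being called and 26.6% being higher. Pomp, a maturation chaperone of the core whose symbol lies outside the set, had an estimate of the opposite sign (-0.13, SE 0.06). It was not called. The set holds 3 chaperones of the ATPase base. Psmd10, also known as gankyrin, rose from 32.5, 34.7, 32.3 and 31.3 CPM to 34.5, 35.8 and 39.8 CPM (log2 change 0.16, SE 0.06, adjusted p = 0.0287). Psmd9 stood at 47.0, 45.8, 45.4 and 46.8 CPM in wild type and 46.0, 51.8 and 56.8 CPM in the mutant-labelled embryos (0.15, SE 0.05, adjusted p = 0.0292). The third, Psmd5, measured 85.3, 79.3, 82.6 and 78.4 CPM against 76.1, 76.9 and 84.6 CPM (-0.05, adjusted p = 0.396). In Psmd10 all 8 mutant-labelled embryos lay above the wild-type mean, and in Psmd9 7 of 8. With GC and length trends removed Psmd10 was still called higher and Psmd9 was not.

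The core particle is built on 2 chaperone pairs, Psmg1 with Psmg2 and Psmg3 with Psmg4. Psmg3 rose from 34.6, 34.4, 29.4 and 32.2 CPM to 36.6, 39.1 and 46.0 CPM (log2 change 0.28, SE 0.07, adjusted p = 0.00374). Psmg4 rose from 23.5, 24.7, 20.8 and 20.5 CPM to 24.4, 27.5 and 29.4 CPM (0.28, SE 0.07, adjusted p = 0.00522). Both were above the wild-type mean in 8 of 8 embryos, and an exon of Psmg3 overlaps that of another gene on the same strand. Neither rise was called once GC and length trends were removed. Psmg1 stood at 67.4, 70.3, 64.4 and 66.0 CPM against 59.4, 67.7 and 73.5 CPM (-0.01, 95% interval -0.14 to 0.12), and Psmg2 at 47.9, 47.1, 43.1 and 48.5 against 41.1, 44.9 and 48.5 CPM (-0.06, 95% interval -0.18 to 0.06).

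The same contrast can be read within each library, where scaling plays no part but trends with GC and length remain. Reads of Psmg3 and Psmg4 together were 50.4%, 50.3%, 46.7% and 46.1% of those of Psmg1 and Psmg2 in wild type, while the mutant-labelled embryos ranged from 54.9% to 62.6%, with a median of 61.1%. The 7 assembly chaperones of the set were compared with the 31 core and regulatory particle subunits. Their reads came to 4.76%, 4.87%, 4.75% and 4.82% of those of the subunits in wild type. The mutant-labelled embryos lay at 5.0% to 5.56%, with a median of 5.26%. Neither pair of ranges overlapped. Pomp lies outside the set and was left out of the second ratio. Its mean wild-type level, 178 CPM, was above that of each of the 7. Its estimate, which was not called, was below 0 (-0.13, SE 0.06). The separation thus holds for these 7 genes and was not shown for assembly chaperones as a class. These ratios were formed with the fold changes known, so they are given without a test.

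Of 5 activators and inhibitors of the core 1 fell and 4 were not called. Of all genes tested 51.5% were called and 24.9% were lower. Psme3, the nuclear activator PA28 gamma, stood at 360, 367, 347 and 359 CPM in wild type and at 308, 336 and 343 CPM across the mutant-labelled embryos (log2 change -0.10, SE 0.04, adjusted p = 0.0399). The highest mutant-labelled value lay below the lowest wild-type value, by a small margin. Psme1, PA28 alpha, measured 34.4, 34.2, 33.6 and 32.9 CPM against 34.3, 37.3 and 41.2 CPM (0.15, SE 0.06, adjusted p = 0.0557), above the wild-type mean in 8 of 8. Psme4, the large activator of nuclear proteasomes, measured 293, 287, 289 and 277 against 255, 271 and 294 CPM (-0.08, adjusted p = 0.172). Psme2 and the inhibitor gene Psmf1 had log2 fold changes of -0.06 and -0.02, and Psme2 has 1 near-identical copy.

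The counts of called members depended on single embryos. Left out in turn, the 12 embryos gave 2 to 7 higher and 7 to 12 lower members. The number of higher members dropped to 3 without wild-type embryo 1, to 2 without wild-type embryo 3 and to 3 without wild-type embryo 4. Without both wild-type embryo 1 and mutant-labelled embryo 2, 3 were higher and 7 lower, where 43.8% of all genes tested were called. Each time an embryo was left out, Psma3, Psmb5, Psmc4, Psmd1, Psmd2, Psmd11, Psmd14, Psmg3 and Psmg4 stayed called. Psmd9 lost its call without any 1 of the 4 wild-type embryos, Psmd10 without wild-type embryo 1, 3 or 4 or mutant-labelled embryo 3, Psmd3 without wild-type embryo 1 or 3 and Psmd6 without wild-type embryo 3 or 4, with adjusted p up to 0.0943. Psmc5 lost it without wild-type embryo 1, 2 or 4 or mutant-labelled embryo 1, 3, 4, 5 or 7, Psmd12 without wild-type embryo 1, 3 or 4 or mutant-labelled embryo 3, 4, 5 or 7, and Psme3 without wild-type embryo 1, 2 or 4 or mutant-labelled embryo 3, 4 or 5, with adjusted p up to 0.137.

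Base composition moved with the direction of the calls. The 6 higher members had a median transcript GC content of 53.9%, the 10 lower members 48.8% and the 28 others 49.6%. Median transcript lengths were 1409, 2284 and 1275 nt. After each library's dependence on transcript GC and length was taken out, 3 members were higher and 17 lower, where 52.8% of all genes tested were called (26.1% higher, 26.7% lower). The 3 higher genes were then Psmb1, Psmd6 and Psmd10. Psmg3 and Psmg4 had log2 fold changes of 0.13 and 0.15 (adjusted p = 0.054 and 0.0551) and Psmd3 one of 0.02, so that the rise of these genes was not called in that fit. Of the 10 lower genes, 9 stayed lower, the exception being Psmd12. What part base composition had in these differences was not tested further.

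Near-identical copies, mostly processed pseudogenes, were found for 9 of the 47 genes. Of the 35 tested members without one, 6 rose and 6 fell (34.3% called), with a median log2 fold change of -0.04. Of the 9 with a copy, 4 fell (Psma3, Psmb5, Psmd2 and Psmd11), none rose and 5 were not called. That is 44.4% called, with a median of -0.08. Of all genes tested 51.5% were called and 24.9% were lower. No source used here says how reads shared with copies were counted.

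Per kilobase of transcript, subunits of the same particle were measured at unlike levels. In wild type the standard core genes ranged from 15.7 ± 0.705 CPM per kb (SD, n = 4) for Psma3 to 360 ± 7.76 CPM per kb for Psmb6. The ATPase genes spanned 104 (Psmc6) to 226 CPM per kb (Psmc5). Non-ATPase genes lay at 38.8 (Psmd11) to 178 CPM per kb (Psmd2). Chaperones lay at 17.8 (Psmd9) to 64.2 CPM per kb (Psmg1). Psma3 and Psmd11, the lowest of the standard core and the non-ATPase genes, have 4 and 2 near-identical copies. How shared reads were counted is not known, so their levels on this scale are uncertain. Lengths are those of 1 GENCODE transcript per gene, and those of Psma2 and Psma3, 2911 and 2846 nt, are long for alpha subunits, which lowers their values on this scale.

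**Figure D3:**
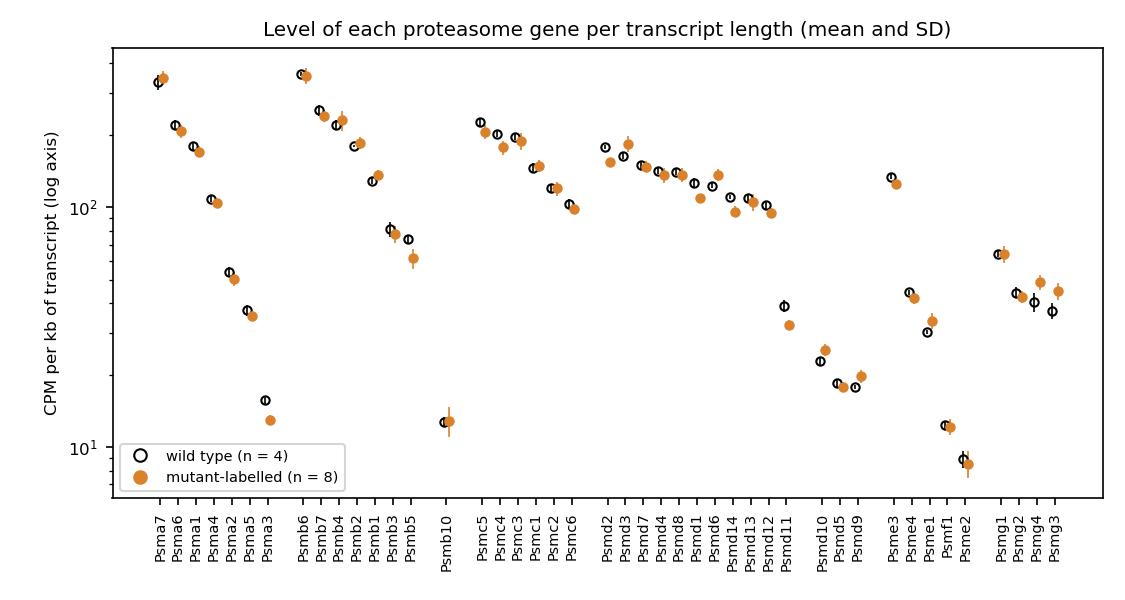
Mean level of each proteasome gene per kilobase of transcript (log axis) in wild-type (open, n = 4) and mutant-labelled embryos (filled, n = 8), with SD, ordered by level within each role. Genes under 1 CPM (Psmb8, Psmb9 and Psmb11) are not drawn; the groups lie close to each other at every level, from Psme2 to Psmb6.

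Genes that work beside the proteasome held calls in both directions. Of 20 listed partners, ubiquitin receptors and shuttles, 19 were tested, and 1 rose, 5 fell and 13 were not called, with a list median of -0.03 and a called share of 31.6%, against 51.5% of all genes tested. Ubqln4, a shuttle that carries ubiquitinated proteins to the proteasome, fell from 269 ± 5.72 to 223 ± 5.05 CPM (log2 change -0.27, SE 0.04, adjusted p = 1.59e-05). Usp14, a deubiquitinase of the proteasome, fell by 0.21 (SE 0.05), Txnl1, a thioredoxin on the regulatory particle, by 0.19 (SE 0.05), and Ubqln1 by 0.16 (SE 0.04). Pomp, a maturation chaperone of the core, averaged 178 ± 9.46 CPM (wild type) and 163 ± 11.6 CPM (mutant-labelled) and was not called (-0.13, SE 0.06, adjusted p = 0.0655).

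Complexes related to the lid, and a large cytosolic chaperonin, were read the same way, against 51.5% of all genes tested being called, 26.6% higher and 24.9% lower. Of 9 genes of the COP9 signalosome, which is built like the lid, 4 rose and 1 fell (55.6% called, median 0.04), among them Cops3 (0.23, SE 0.05), Cops6 (0.16, SE 0.05), Cops4 (0.15, SE 0.05) and Cops8 (-0.15, SE 0.04). Of 12 tested genes of the initiation factor eIF3, which shares the lid fold, 1 rose and 5 fell (median -0.04). That share was close to that of all genes. Eif3m stood at -0.20, Eif3a at -0.19, Eif3c at -0.13 and the riser Eif3e at 0.21. Eif3e has 2 near-identical copies and Eif3m has 1. In wild type Eif3e measured 205, 154, 198 and 194 CPM, against 203 to 227 CPM in the mutant-labelled embryos. Of 8 genes of the chaperonin TRiC, which folds actin and tubulin, 5 fell and none rose (62.5% called, median -0.19), with Cct8 at -0.32 (SE 0.04), Cct2 at -0.31 (SE 0.05), Cct6a at -0.25 (SE 0.04) and Cct4 at -0.23 (SE 0.04).

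Ubb, a ubiquitin gene with 2 near-identical copies, averaged 270 ± 2.37 CPM in wild type and was not called (adjusted p = 0.643). Of the ubiquitin-activating enzymes, which prime ubiquitin for transfer, Uba6 fell by 0.53 (SE 0.08) and Uba1 by 0.12 (SE 0.04). In the genes listed as regulators the median absolute log2 fold change was 0.22. That is above the 0.08 of the proteasome genes but near the 0.25 of all genes tested. The same median was 0.07 for the partners, 0.13 for the COP9 signalosome, 0.12 for eIF3 and 0.19 for TRiC. Differences over 1.2-fold were found in 5.26% of the tested partners, 25% of the TRiC genes and 50% of the regulators. In the COP9 and eIF3 lists 0 genes passed that size, against 9.09% of the proteasome genes. Small differences were thus not particular to the proteasome genes.

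Of 12 regulators 2 rose, 4 fell and 6 were not called, with a median of -0.03. The called share was close to the 51.5% of all genes tested. Nfe2l1, the factor known to raise proteasome genes when proteasome activity is short, fell from 228, 238, 241 and 246 CPM to 213, 215 and 241 CPM (log2 change -0.12, SE 0.04, adjusted p = 0.032). Its level was below the whole wild-type range in 7 of 8. Its processing needs Ngly1, a deglycosylase, and Ddi2, a protease. Ngly1 rose from 9.04, 10.3, 10.4 and 11.1 CPM to 21.1, 22.7 and 25.5 CPM (1.16, SE 0.08, adjusted p = 2.87e-08), while Ddi2 fell by 0.29 (SE 0.08). Keap1, the adaptor that targets Nfe2l2 for degradation, rose from 45.7, 49.4, 52.3 and 53.5 CPM to 81.2, 86.0 and 89.7 CPM (0.77, SE 0.05, adjusted p = 2.08e-08). The NF-Y genes Nfyb and Nfya fell by 0.37 (SE 0.06) and 0.34 (SE 0.08). Ngly1, Ddi2 and Keap1 overlap exons of other genes.

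**Figure D4:**
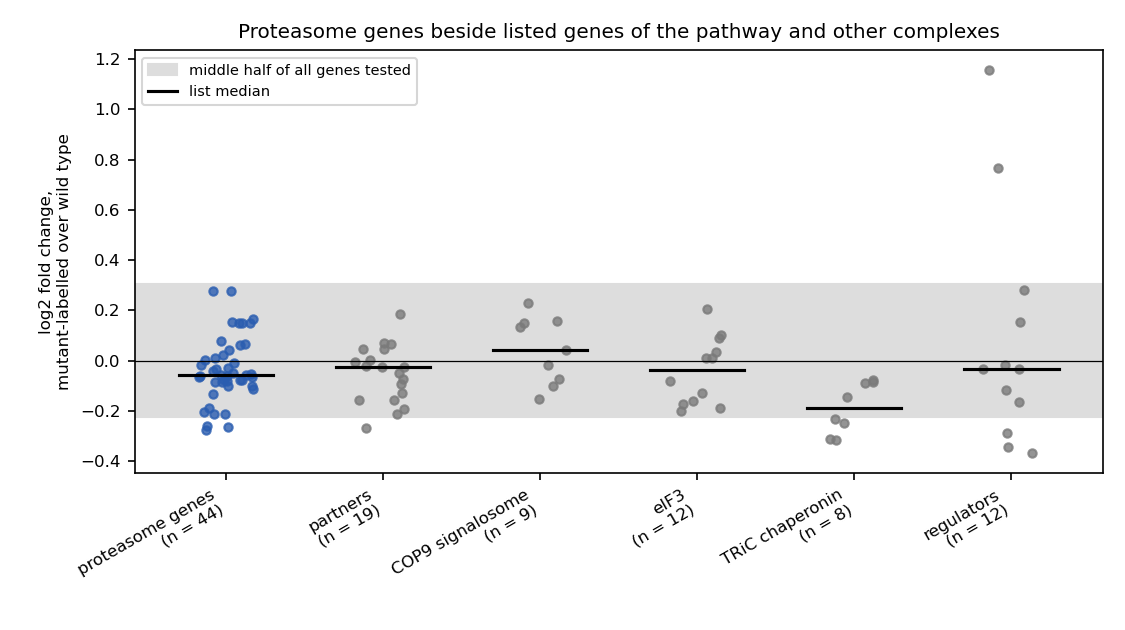
Log2 fold change of each tested gene, mutant-labelled over wild type, in the proteasome and in 5 listed groups, with list medians as bars and the span from the 25th to the 75th percentile of all 14412 genes tested as a grey band. The proteasome genes lie between -0.28 and 0.28, while the regulators Ngly1 (1.16) and Keap1 (0.77) stand above.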

How the data were processed

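The values are unnormalized read counts by gene symbol, deposited by the authors with a column for each embryo. The submitters' processing notes name mm9 and, as tools, STAR, featureCounts, DESeq2 and FastQC; no source used here gives versions, annotation, strand setting or multi-mapping treatment. Embryo numbers follow sample order and pair nothing. Each p-value sets the difference between the groups against the spread between single embryos, taken as independent. Whether they were cannot be told, because the labels name no litters or batches.

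Counts were fitted in edgeR 4.0.16 (R 4.3.3): TMM, filterByExpr, robust dispersions, quasi-likelihood test of genotype, no covariate, threshold 0.05. The SE is the log2 fold change over the square root of F. Alternatives used DESeq2 1.42.0 and limma 3.58.1. The test was first tried on simulated counts.

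Copies were called near-identical where a transcript of a different gene (GENCODE M21) shared at least 200 bases at 95% identity (BLAST 2.17.0). Length and GC come from M21 principal transcripts; promoters are RefSeq's, GRCm38.p6. Members and lists were chosen with earlier results of these data known. Values by embryo are given for up to 3 members per role with the lowest adjusted p and those against the direction of their role's calls; up to 4 genes per other list are named. Ubb, Pomp, Ddi2, Nfe2l1 and Coro1a were added after their values were seen, as were the ratios within a library. Markers of red cells and yolk sac served as covariates. Some genes of the ubiquitin and interferon lists are not reported here.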

Additional observations from a re-analysis of the deposited data

Results flagged for a closer look

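In 5 of 88 groups of embryos (5.68%), taken over the 44 tested genes and both genotypes, 1 embryo lay far from the rest by a limit that chance passes in about 1 in 20 groups. Wild-type embryo 1 was high in Psma6 (246 CPM, the remaining 3 being at 223 to 227) and in Psmb7 (316 CPM, the remaining 3 at 286 to 289). Wild-type embryo 3 was low in Psmb10 (15.7 CPM, against 17 to 17.3) and in Psmc3 (309 CPM, against 325 to 326). Mutant-labelled embryo 7 was low in Psme3, at 308 CPM, the remaining 7 being at 331 to 343.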

How the results depend on the processing

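Fewer members were higher, against 6, without wild-type embryo 1 and mutant-labelled embryo 2 (3), with GC and length trends removed (3), at an adjusted p of 0.01 (2) and in the test against 1.2-fold (0). Lower members, 10 in the fit reported, came to 17 with GC and length trends removed and to 0 in the test against 1.2-fold. That test, whose minimum fold change lowers counts by construction, called 2079 genes higher and 1144 lower over all genes. The other lists, markers apart, held 76 tested genes, of which 11 were higher and 23 lower in the fit reported. Of these listed genes the test against 1.2-fold called 5 higher and 2 lower, and 7 were higher at an adjusted p of 0.01. Leaving out each embryo in turn gave 2 to 7 higher and 7 to 12 lower members, a member median of -0.08 to -0.04, 3369 to 3896 higher and 3107 to 3683 lower genes over all, and 8 to 12 higher and 18 to 25 lower listed genes. No called member changed sign in any alternative run. The calls of Psma3, Psmb5, Psmc4, Psmd1, Psmd2, Psmd11 and Psmd14 held in all 27 alternatives other than the test against 1.2-fold; no rise did. No paired analysis was possible because the labels give no replicate numbers. The 95% intervals of the 28 members without a call all lay between -0.29 and 0.28 on the log2 scale, and a missing call does not show that a gene did not differ.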
